A study of Mus musculus with 12 samples.

Results

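This account follows 10 transcripts of inflammatory signalling through 12 RNA-seq libraries of mouse adipose stromal cells: the cytokines Il1a, Il1b, Il18, Tnf, Il6 and Il10, the interleukin-1 receptor antagonist Il1rn, the inflammasome sensor Nlrp3, its protease Casp1, and the inducible nitric oxide synthase Nos2. They were taken by gene symbol from the 24422 features of the count tables, and all 10 were present and passed the filter on low counts, which 16713 genes passed in all. The libraries came from the stromal vascular fraction of adipose tissue, the mixture of progenitor, vascular and immune cells that is left once mature adipocytes are removed. They form 4 groups of 3. The SD mCherry group (replicates 1, 2 and 3) carried the genotype p21+/mcherry and ate a standard diet. The HFD mCherry group (replicates 15, 17 and 20) shared this genotype and ate a high-fat diet. The HFD Tert group (replicates 25, 26 and 27, p21+/mcherry-Tert) and the HFD TertCi group (replicates 30, 31 and 33, p21+/mcherry-TertCi) ate the high-fat diet and carried a cassette in which the promoter of p21 (Cdkn1a) drives telomerase reverse transcriptase or its catalytically inactive form. Every group thus had 1 modified and 1 normal p21 allele, and there is no group with the knock-ins on the standard diet. In the GRCm38 annotation (GENCODE M21) Il1a (chr2:129299610-129309972), Il1b (chr2:129364570-129371139) and Il1rn (chr2:24336853-24351494) lie on the same chromosome, with Il18 (chr9:50554827-50581840) and Casp1 (chr9:5298517-5307265) on another. Nlrp3 (chr11:59541568-59566956) and Nos2 (chr11:78920787-78960254) also share one, and Tnf (chr17:35199381-35202007), Il6 (chr5:30013114-30019981) and Il10 (chr1:131019845-131024974) lie apart. The design text of the series writes the high-fat diet control as heterozygous for p21 without naming mCherry, and the sample labels were followed. Age, sex, fat depot and whether animals were pooled are not given in the labels, so p-values measure the spread between these samples.

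IL-1α and IL-1β are agonists of the same receptor, and the protein from Il1rn binds that receptor without signalling. IL-1β and IL-18 are made as inactive precursors that caspase-1 cuts once it has been activated on an inflammasome, of which NLRP3 is one sensor. Transcript levels therefore say nothing about how much active cytokine was released. TNF and IL-6 are made by adipose macrophages and, in the case of IL-6, also by stromal progenitors. IL-10 is an anti-inflammatory cytokine, and Nos2 is a classical marker of macrophages activated by bacterial products and interferon.

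Several of these genes are textbook targets of NF-κB, so the 250 bases before their annotated starts are shown for 4 genes with a higher mean on the high-fat diet and for Il18, whose mean was lower. Sequences are from RefSeq (GRCm38.p6), 5′ to 3′ on the gene's strand, and a start was found for 8 of the 10 genes. Capitals mark matches to a κB-like motif (GGG and CC with any 5 bases between them, either strand), an AP-1 motif (TGANTCA, either strand), a C/EBP motif (TTGCNNAA, either strand) or a TATA box (TATAAA, forward strand). Il1rn has 3 annotated starts, and the one shown is the furthest upstream.
Il1b (chr2:129371140-129371389, minus strand): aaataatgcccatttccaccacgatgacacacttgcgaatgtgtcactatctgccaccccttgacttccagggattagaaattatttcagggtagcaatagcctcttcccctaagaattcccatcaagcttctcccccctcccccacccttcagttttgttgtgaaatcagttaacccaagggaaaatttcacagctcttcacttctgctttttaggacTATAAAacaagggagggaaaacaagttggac
Il1rn (chr2:24336610-24336859, plus strand): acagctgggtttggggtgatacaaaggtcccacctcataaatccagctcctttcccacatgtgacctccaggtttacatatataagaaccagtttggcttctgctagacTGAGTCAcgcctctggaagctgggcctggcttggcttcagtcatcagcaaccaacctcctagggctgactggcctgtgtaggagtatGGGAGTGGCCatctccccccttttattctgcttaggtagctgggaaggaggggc
Tnf (chr17:35202008-35202257, minus strand): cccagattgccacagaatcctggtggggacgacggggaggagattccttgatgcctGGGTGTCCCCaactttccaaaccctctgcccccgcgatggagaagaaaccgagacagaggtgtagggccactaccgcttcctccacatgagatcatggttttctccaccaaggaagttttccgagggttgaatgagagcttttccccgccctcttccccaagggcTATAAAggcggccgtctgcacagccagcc
Il6 (chr5:30012864-30013113, plus strand): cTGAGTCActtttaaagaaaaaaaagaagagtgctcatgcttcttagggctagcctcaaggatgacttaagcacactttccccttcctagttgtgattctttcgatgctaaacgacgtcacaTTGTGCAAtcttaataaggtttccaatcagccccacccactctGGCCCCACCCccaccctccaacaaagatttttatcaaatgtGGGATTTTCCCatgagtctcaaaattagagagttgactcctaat
Il18 (chr9:50554450-50554699, plus strand): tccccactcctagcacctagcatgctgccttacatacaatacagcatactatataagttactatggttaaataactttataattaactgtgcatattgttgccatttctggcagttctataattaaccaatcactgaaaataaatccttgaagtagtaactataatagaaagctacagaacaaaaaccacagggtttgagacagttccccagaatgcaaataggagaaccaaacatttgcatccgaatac
The Il6 window, the richest of the 5, held 3 κB-like matches, of which a pair overlaps, with 1 AP-1 and 1 C/EBP match. The 8 genes have 11 starts in the table, of which 6 had a κB-like match, where 45.8% of all 32851 starts did. A TATA box stood before 3 of the 11 (7.59% of all starts), an AP-1 match before 3 (6.75%) and a C/EBP match before 1 (9.56%). Il18 had no match to any of these letters in its window. A match is a description of the sequence and not evidence of binding.

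Depth was even, at 16430330 to 19486965 counts per library. The added mCherry_Tert feature had no count in the 6 mCherry libraries and 33 to 86 counts in the 6 knock-in libraries, as their labels say. Macrophage genes were present in every library, but their level differed widely: the 10 genes of the macrophage list (Adgre1, Cd68, Csf1r and others) summed to 537 to 851 CPM (counts scaled by library size) in SD mCherry and 1828 to 4730 CPM in HFD mCherry, against 425 to 1864 CPM in the Tert libraries and 651 to 1093 CPM in the TertCi libraries. Transcripts of epididymis and other epithelia, which do not belong to this fraction, also varied. An 11-gene list of these summed to 17350 CPM in HFD mCherry replicate 15 and to 731 and 279 CPM in the other libraries of that group, and to 91.9 CPM in HFD Tert replicate 27 against 9669 and 4374 CPM in its companions. In bulk RNA, fewer cells of a type and less RNA per cell cannot be told apart.

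Levels differed by over 2 orders of magnitude among the 10 genes. Per kilobase of exon (RPKM, with the union of GENCODE exons as length, averaged over the 12 libraries), Il6 was the most abundant at 411, followed by Il1b at 162, Tnf at 57.9, Il10 at 49.9, Il1rn at 32.0 and Il1a at 23.3. Nlrp3 stood at 13.9, Casp1 at 6.71, Il18 at 5.24 and Nos2 at 0.802. Apart from Il18, the cytokine transcripts were thus more abundant per length than those of the sensor and of the protease that processes IL-1β. HFD mCherry replicate 17 was the highest of all 12 libraries for 7 of the 10 genes, and SD mCherry replicate 3 the lowest for 5.

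**Figure D1:**
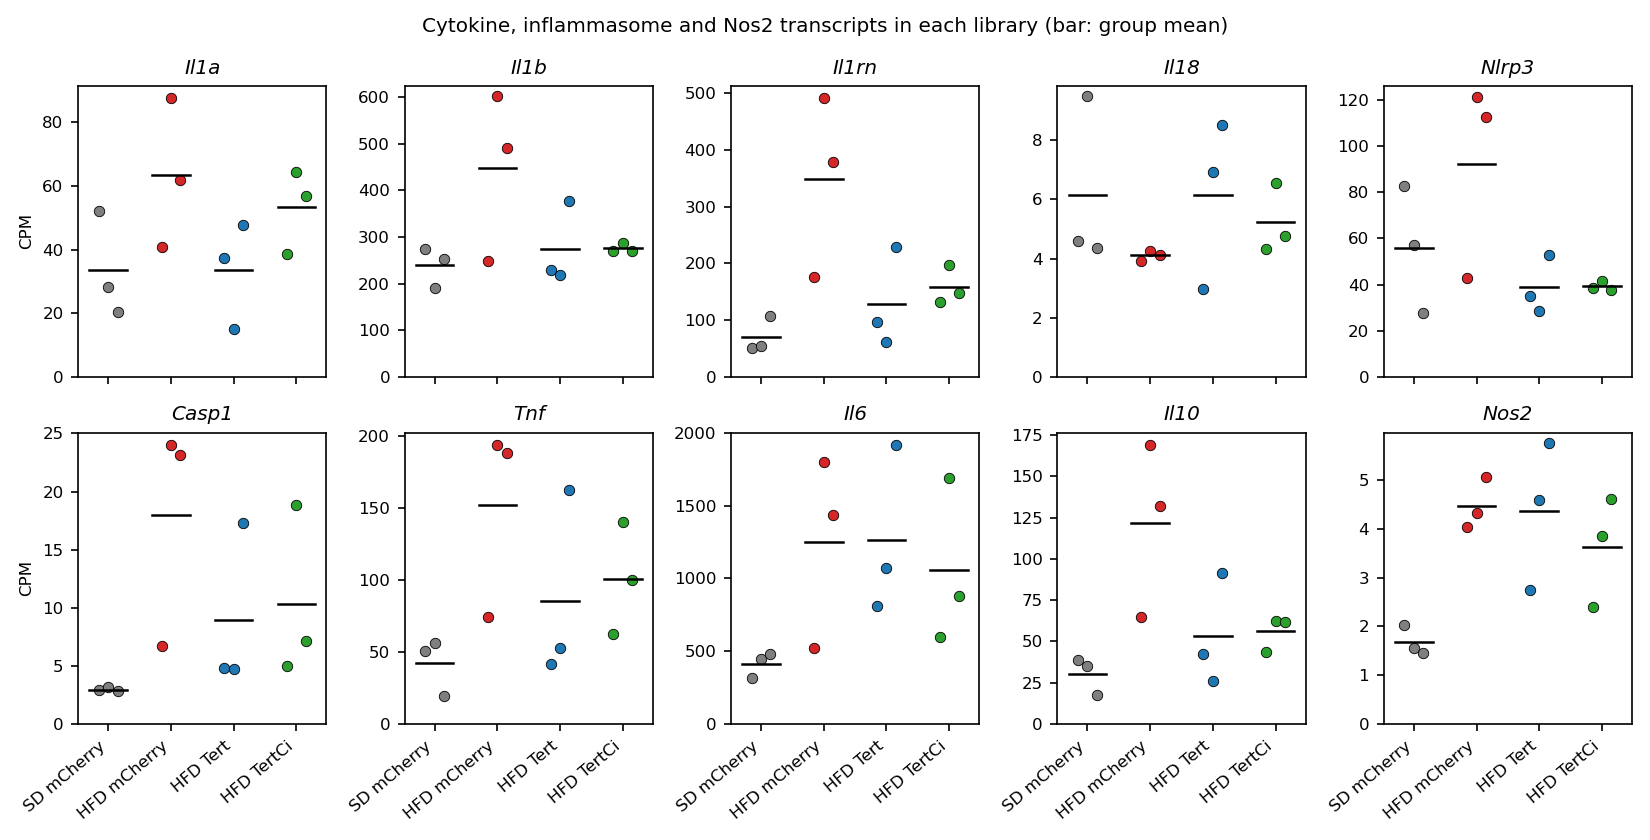
Level of each transcript (CPM, linear axis from 0) in the 12 libraries, by group. Points are libraries and bars are group means. In HFD mCherry, replicates 17 and 20 lie above replicate 15 for Il1b, Il1rn, Nlrp3, Casp1, Tnf, Il6 and Il10, while Il18 has its 3 HFD mCherry values between 3.92 and 4.27 CPM.

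The diet was examined by comparing HFD mCherry with SD mCherry. On the high-fat diet 9 of the 10 transcripts had a higher fitted level (45.9% of all genes) and Il18 a lower one. None passed the threshold in edgeR's quasi-likelihood test (0 of 10 at an adjusted p under 0.05, where 0.0479% of all genes passed), although 7 had an unadjusted p under 0.05, all higher, against 24.1% of all genes. The 3 libraries of each group did not overlap for Il1rn, Tnf, Il6, Il10, Casp1 and Nos2, which were higher (13.9% of all genes), and for Il18, which was lower (11.6%). The median log2 fold change of the 10 genes was 1.51, and that of all genes tested was -0.0753. DESeq2, which models the same counts with another estimate of the spread, called the same 6 higher genes (12.3% of all genes were called).

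Among the IL-1 ligands, Il1b was at 275, 192 and 253 CPM in SD mCherry replicates 1, 2 and 3 and at 248, 603 and 490 CPM in HFD mCherry replicates 15, 17 and 20. Replicates 17 and 20 were above all standard-diet libraries and replicate 15 lay among them. The fitted log2 fold change was 0.90 ± 0.330 (SE, n = 3 each, edgeR adjusted p = 0.147). Il1a, the agonist that is active without cleavage, ran from 20.5 to 52.2 CPM in SD mCherry and from 40.8 to 87.7 CPM in HFD mCherry, so the groups overlapped (log2 fold change 0.92 ± 0.469, SE, edgeR adjusted p = 0.251).

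A larger difference was seen in the antagonist. Il1rn was at 51.6, 53.9 and 108 CPM in the SD mCherry libraries and at 177, 491 and 379 CPM in HFD mCherry, with every high-fat value above every standard-diet value. Its log2 fold change was 2.30 ± 0.534 (SE, edgeR adjusted p = 0.0727, DESeq2 adjusted p = 0.00109).

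Of the inflammasome genes, Casp1 had the largest fold difference of the 10 genes. It was tightly grouped on the standard diet, at 2.90, 3.15 and 2.78 CPM, and stood at 6.68, 24.0 and 23.2 CPM on the high-fat diet (log2 fold change 2.60 ± 0.704, SE, edgeR adjusted p = 0.0848, DESeq2 adjusted p = 0.00475). The sensor Nlrp3 was at 82.5, 57.1 and 27.9 CPM in SD mCherry and at 42.8, 121 and 112 CPM in HFD mCherry. Its groups overlapped, with a log2 fold change of 0.72 ± 0.440 (SE, edgeR adjusted p = 0.323). Il18, the other caspase-1 substrate, was at 4.58, 9.50 and 4.35 CPM in SD mCherry and at 3.92, 4.27 and 4.12 CPM in HFD mCherry. The lower side of this difference rested on SD mCherry replicate 2: the log2 fold change of -0.58 ± 0.444 (SE, edgeR adjusted p = 0.421) was -0.12 without that library. Il18 shares its locus with Bco2 on the opposite strand, Bco2 also had its highest count (117) in SD mCherry replicate 2, and whether counting used strand is not given in the sources used here, so Il18 reads are uncertain.

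Tnf was at 50.7, 55.9 and 19.0 CPM in SD mCherry and at 73.8, 193 and 188 CPM in HFD mCherry (log2 fold change 1.86 ± 0.614, SE, edgeR adjusted p = 0.121, DESeq2 adjusted p = 0.0261). For Il6 the values were 313, 445 and 482 CPM on the standard diet and 522, 1801 and 1436 CPM on the high-fat diet (log2 fold change 1.601 ± 0.529, SE, edgeR adjusted p = 0.120, DESeq2 adjusted p = 0.0288). Both cytokines had a high-fat replicate 15 just above the standard-diet range and a pair of libraries well above it.

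The anti-inflammatory cytokine was higher too. Il10 was at 38.6, 34.8 and 17.6 CPM in SD mCherry and at 64.6, 169 and 132 CPM in HFD mCherry (log2 fold change 2.01 ± 0.503, SE, edgeR adjusted p = 0.0756, DESeq2 adjusted p = 0.00296). Nos2 was the scarcest of the 10 transcripts, with 25 to 40 counts in the SD mCherry libraries and 72 to 85 in HFD mCherry. That is 1.45 to 2.04 CPM against 4.03 to 5.08 CPM (log2 fold change 1.41 ± 0.400, SE, edgeR adjusted p = 0.0896, DESeq2 adjusted p = 0.0130), and here the high-fat libraries were close to each other.

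The calls in this comparison depended on the model and on single libraries. Without HFD mCherry replicate 15, edgeR called 6 of the 10 genes, all higher: Il1b, Il1rn, Tnf, Il6, Il10 and Casp1 (2082 genes were called in all). Without HFD Tert replicate 27, which is not part of the comparison but of the shared estimate of spread, it called Il1rn, Il10 and Casp1 (686 genes in all). With the level of the epithelial list as a covariate it called 4, Il1rn, Tnf, Il10 and Casp1, again all higher (1394 genes in all).

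**Figure D2:**
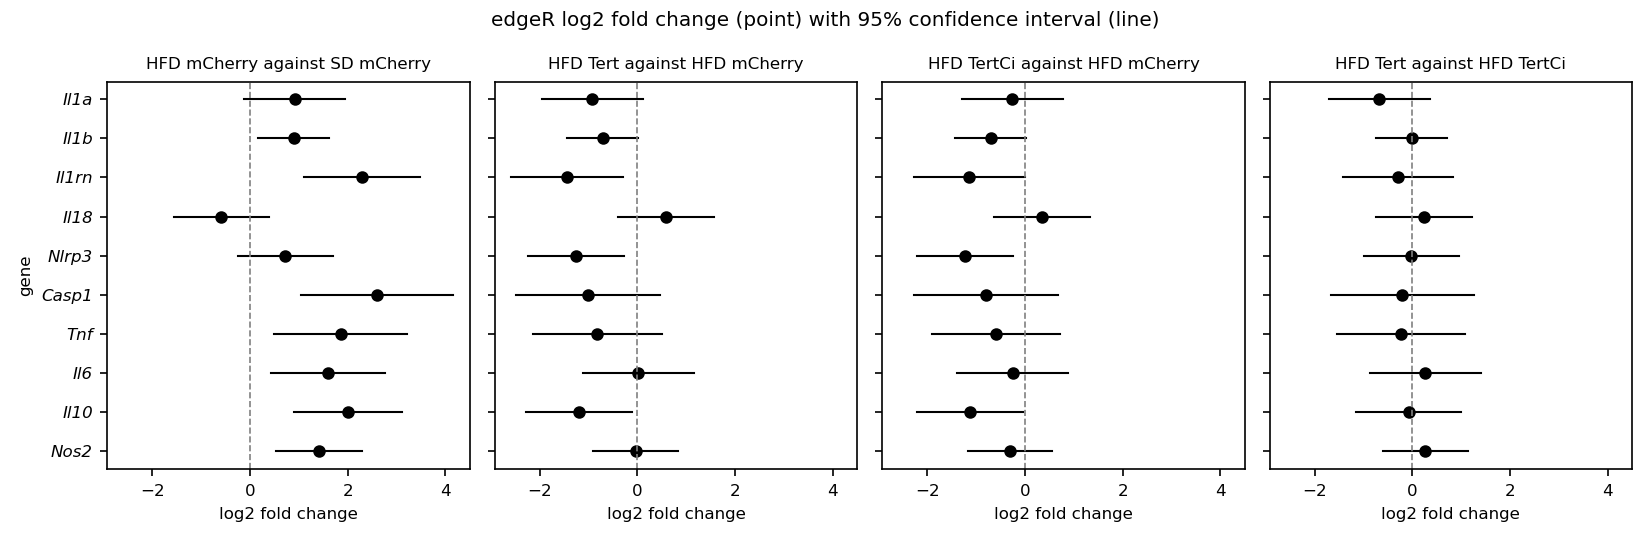
edgeR log2 fold change of each gene (point) with its 95% confidence interval (line) in the 4 comparisons, on a common axis. In the diet comparison 9 of 10 points lie right of 0, in the HFD Tert comparison 8 lie left of 0, and in the comparison of both knock-ins every interval covers 0.

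The knock-ins were compared with HFD mCherry, which asks whether Tert or its inactive form goes with another cytokine level under the same diet. These comparisons and the diet comparison share the HFD mCherry libraries, so a high or low library of that group moves all of them. In HFD Tert 8 of the 10 transcripts had a lower fitted level than in HFD mCherry, and in HFD TertCi 9 had (46.2% and 47.4% of all genes had a higher one). None passed edgeR's test in either (0 of 10, with 0% of all genes called for Tert and 0.012% for TertCi), and DESeq2 called none of the 10 (5.04% and 4.09% of all genes). At an unadjusted p under 0.05 there were 3 in HFD Tert (Il1rn, Il10 and Nlrp3, against 16.4% of all genes) and 2 in HFD TertCi (Il10 and Nlrp3, against 14.7%), all lower. In HFD Tert no gene of the 10 had libraries apart from those of HFD mCherry (21.1% of all genes did), and in HFD TertCi 2 were apart and lower, Il10 and Nlrp3 (12% of all genes), and 1 was apart and higher, Il18 (9.45%). The median log2 fold change was -0.88 for Tert and -0.64 for TertCi, and that of all genes was -0.0534 and -0.0389.

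Nlrp3 had a low level in both knock-in groups. It was at 34.8, 28.6 and 52.8 CPM in HFD Tert replicates 25, 26 and 27 and at 38.7, 41.7 and 37.6 CPM in HFD TertCi replicates 30, 31 and 33, so that all HFD TertCi libraries were under the lowest HFD mCherry value of 42.8 CPM. The log2 fold changes were -1.25 ± 0.445 for Tert (SE, edgeR adjusted p = 0.232) and -1.23 ± 0.445 for TertCi (SE, edgeR adjusted p = 0.261). The knock-in means of 38.7 and 39.3 CPM were also below the 55.8 CPM of the standard-diet group, whose own libraries spread more widely.

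Il1rn was at 97.1, 62.1 and 229 CPM in HFD Tert and at 132, 196 and 148 CPM in HFD TertCi. HFD Tert replicate 27 and HFD TertCi replicate 31 overlapped with HFD mCherry replicate 15 (177 CPM), and the log2 fold changes were -1.43 ± 0.519 (SE, edgeR adjusted p = 0.238) and -1.14 ± 0.515 (SE, edgeR adjusted p = 0.341). Il10 was at 42.3, 25.8 and 91.7 CPM in HFD Tert and at 43.5, 62.6 and 61.8 CPM in HFD TertCi, where each library lay under the 64.6 CPM of HFD mCherry replicate 15 (log2 fold changes -1.19 ± 0.491 and -1.12 ± 0.491, SE, edgeR adjusted p = 0.274 and 0.325). The antagonist and the anti-inflammatory cytokine were thus lower on average in both knock-in groups, as they had been higher on the diet.

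Both IL-1 agonists had lower means than in HFD mCherry, and a difference between the agonists was not tested. Il1b was at 228, 218 and 376 CPM in HFD Tert and at 271, 288 and 271 CPM in HFD TertCi, with log2 fold changes of -0.71 ± 0.329 and -0.69 ± 0.329 (SE, edgeR adjusted p = 0.317 and 0.361). Il1a averaged 33.4 CPM in HFD Tert and 53.3 CPM in HFD TertCi, against 63.5 CPM in HFD mCherry, with log2 fold changes of -0.93 ± 0.469 and -0.25 ± 0.465 (SE, edgeR adjusted p = 0.348 and 0.828).

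The fitted differences of Il6 from HFD mCherry were small. In HFD TertCi its value was close to that of Il1a, and whether Il6 differs from the other cytokines was not tested. It was at 813, 1069 and 1922 CPM in HFD Tert, 596, 1692 and 879 CPM in HFD TertCi and, as above, 522 to 1801 CPM in HFD mCherry. The 3 high-fat groups overlapped, and their lowest value was above the highest of the standard-diet group (482 CPM). The share of all genes with all 3 high-fat groups above the standard-diet group in this way was not computed. The log2 fold change was 0.018 for Tert (95% interval -1.12 to 1.16, edgeR adjusted p = 0.990) and -0.25 for TertCi (95% interval -1.39 to 0.89, edgeR adjusted p = 0.851), intervals that leave room for a change of either sign. Nos2 likewise differed little in mean: it was at 4.36 ± 1.52 CPM with Tert, 3.62 ± 1.13 CPM with TertCi and 4.48 ± 0.538 CPM in HFD mCherry (SD, n = 3 each).

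Tnf was at 41.6, 52.5 and 163 CPM in HFD Tert and at 62.2, 140 and 99.6 CPM in HFD TertCi, and Casp1 at 4.79, 4.70 and 17.3 CPM and at 5.00, 18.8 and 7.17 CPM. For both genes HFD Tert replicate 27 and HFD TertCi replicate 31 were the highest of their groups. For Tnf, HFD TertCi replicate 33 (99.6 CPM) was also above HFD mCherry replicate 15 (73.8 CPM). HFD Tert replicate 27 and HFD TertCi replicate 31 also had the highest macrophage-list level and the lowest epithelial-list level of their groups. The part of these levels in the result was not tested beyond a fit with the epithelial list as a covariate. The log2 fold changes were -0.82 ± 0.598 and -0.59 ± 0.596 for Tnf and -1.01 ± 0.667 and -0.80 ± 0.665 for Casp1 (SE, edgeR adjusted p of 0.459 or more in all 4). With the epithelial covariate the values were -1.24 and -0.61 for Tnf and -1.39 and -0.82 for Casp1 (edgeR adjusted p of 0.05097 or more in all 4). Il18 was higher on average in both knock-in groups, at 2.98, 6.94 and 8.52 CPM in HFD Tert and 4.34, 6.57 and 4.76 CPM in HFD TertCi, with log2 fold changes of 0.58 ± 0.444 and 0.35 ± 0.444 (SE, edgeR adjusted p = 0.522 and 0.746).

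With the epithelial list as a covariate, edgeR called Il1rn, Il10 and Nlrp3 lower in HFD Tert (adjusted p = 0.0499, 0.0266 and 0.0330, with 1138 genes called in all) and none of the 10 in HFD TertCi (784 genes in all). No leave-one-out fit called any of the 10 genes in either comparison. HFD Tert replicate 27 set the size of several differences: without it the HFD Tert value moved from -0.82 to -1.69 for Tnf, from -1.01 to -1.92 for Casp1 and from 0.018 to -0.41 for Il6.

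HFD Tert and HFD TertCi were compared directly to ask whether catalytic activity goes with a difference. None of the 10 genes passed edgeR's test (0 called, 0% of all genes), none had an unadjusted p under 0.05 (1.36% of all genes), DESeq2 called none (0.0419% of all genes), and for none did the 3 libraries of the groups separate (5.13% of all genes). The largest difference was in Il1a, at 37.4, 15.1 and 47.8 CPM in HFD Tert and 38.5, 64.4 and 56.9 CPM in HFD TertCi (log2 fold change -0.67, 95% interval -1.70 to 0.36, edgeR adjusted p = 1). For Il1b the difference was -0.012 with a 95% interval of -0.74 to 0.71, and for Nlrp3 -0.022 with -0.99 to 0.95. The remaining genes had intervals at least as wide as that of Il1b, so these data do not show that the groups are alike. Over the 4 groups together, edgeR's F-test called 0 of the 10 genes (0.012% of all genes), and 6 had an unadjusted p under 0.05 (20.2% of all genes). DESeq2's likelihood ratio test called Il1rn, Il10, Casp1 and Nos2 (13.6% of all genes).

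The IL-1 antagonist and IL-1β were also read against each other within a library, where scaling between libraries plays no part. The ratio of Il1rn to Il1b counts was 0.188, 0.281 and 0.427 in SD mCherry, and 0.713, 0.813 and 0.773 in HFD mCherry. It was 0.425, 0.285 and 0.608 in HFD Tert and 0.488, 0.682 and 0.546 in HFD TertCi. HFD mCherry thus lay above every library of the other 3 groups, and unlike the levels themselves its ratio was similar in replicate 15 and in replicates 17 and 20. The ratio is of counts and not of molecules, because the transcripts differ in length. In each of the 3 comparisons with HFD mCherry the 2-sided exact permutation p was 0.1, the smallest that 3 against 3 libraries allow, so this separation cannot pass a threshold of 0.05. Between the knock-in groups it was 0.3. The ratio was picked after the values of both genes were seen. The share of all genes whose ratio to Il1b sets HFD mCherry apart in this way was not computed. Against Il1a, the other agonist, the groups were not apart: the ratio of Il1rn to Il1a counts was 4.33, 5.59 and 6.12 in HFD mCherry, while SD mCherry replicate 3 reached 5.25 and HFD Tert replicate 27 reached 4.78.

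**Figure D3:**
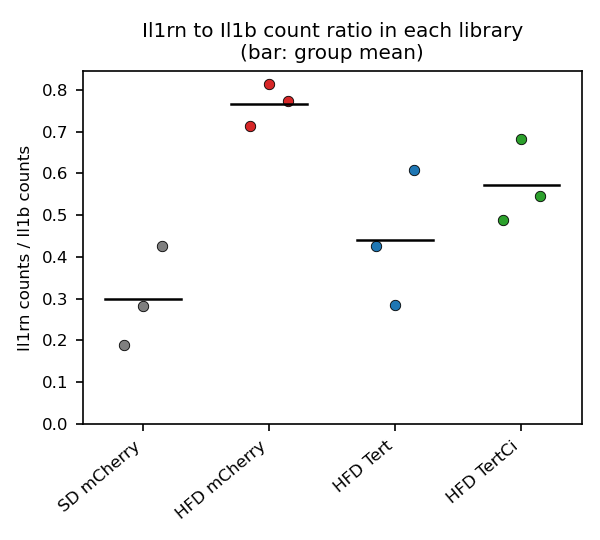
Ratio of Il1rn to Il1b counts in each library (linear axis from 0), by group. Points are libraries and bars are group means. The 3 HFD mCherry libraries lie between 0.713 and 0.813, and the highest value outside that group is 0.682.

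Because macrophage genes moved with the groups, each count was also set against the summed counts of the 10 macrophage-list genes in its library. In HFD mCherry these sums were 33086, 78659 and 66192 counts, and 3 of the 10 genes scaled with them most closely: per 1000 macrophage-list counts there were 129 ± 6.02 Il1b, 98.8 ± 4.36 Il1rn and 34.8 ± 1.22 Il10 counts (SD, n = 3). Casp1 at 4.86 ± 1.12, Il18 at 1.36 ± 0.681 and Nos2 at 1.47 ± 0.665 varied most for their level. The share of all genes that scale as closely was not computed. HFD mCherry replicate 15 was thus low for Il1b, Il1rn and Il10 and for the macrophage list, but not for these alone. Its adipose progenitor list summed to 3838 CPM against 10890 and 11060 CPM in replicates 17 and 20, and its endothelial list to 869 CPM against 1583 and 1521 CPM. The epithelial list summed higher in replicate 15 than in replicates 17 and 20. The monocyte and T and NK cell lists did so too, but through single genes. Klrb1c made up 174 of the 180 CPM of the T and NK cell list in replicate 15. Plac8 made up 50.6 of the 68.8 CPM of the monocyte list there. What lay behind the low level was not tested. On the standard diet the corresponding values were 357 ± 124 for Il1b, 111 ± 77.3 for Il1rn and 32.8 to 52.7 for Il10. Il1a, Il1b, Il6, Il18 and Nlrp3 were lower per macrophage-list count in every HFD mCherry library than in any SD mCherry library, 5 of 10 genes, where 81.2% of all genes did so, and none of the 10 was higher in all of them (0.527% of all genes).

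In the knock-in mice the macrophage list itself was lower than in HFD mCherry, with median log2 fold changes of -1.83 for Tert and -1.92 for TertCi. An edgeR unadjusted p under 0.05 was found for 9 of its 10 genes in HFD Tert (16.4% of all genes) and 10 of 10 in HFD TertCi (14.7%). At an adjusted p under 0.05 edgeR called 0 of them (0% and 0.012% of all genes). DESeq2 called 8 and 7 (5.04% and 4.09% of all genes). The median of the 10 inflammatory genes was less far below 0, with 8 of them lower with Tert and 9 with TertCi. Per macrophage-list count, all HFD TertCi libraries exceeded all HFD mCherry libraries for 10 of 10 genes. By the same measure all HFD Tert libraries did so for 9 of 10, with Nlrp3 overlapping. The background for these counts is high, 64% of all genes for TertCi and 41.9% for Tert, because the divisor itself is lower in these groups. Between HFD Tert and HFD TertCi only Il1rn was apart per macrophage-list count, lower with Tert (0.79% of all genes). Per 1000 macrophage-list counts, Tnf stood at 42.9 ± 3.96 in HFD mCherry, 92.8 ± 28.6 with Tert and 115 ± 17.4 with TertCi, and in the same order Il10 at 34.8 ± 1.22, 59.5 ± 9.75 and 66.7 ± 9.42 (SD, n = 3). Il6 was at 343 ± 50.8, 1622 ± 789 and 1181 ± 328. Which cells made these transcripts was not measured.

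**Figure D4:**
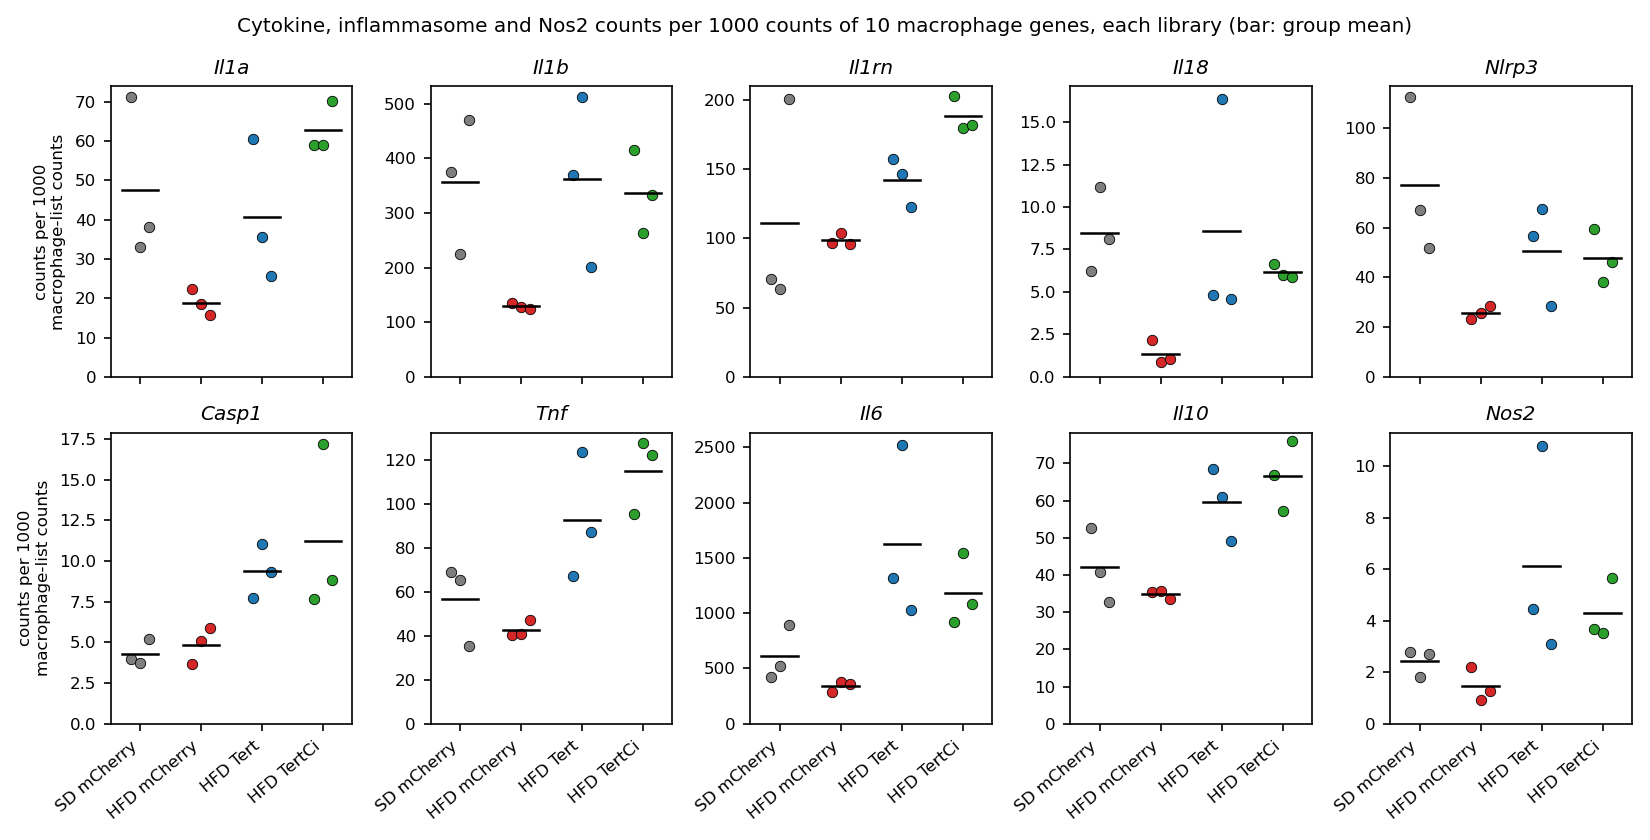
Counts of each gene per 1000 counts of the 10 macrophage-list genes in the same library (linear axis from 0), by group. Points are libraries and bars are group means. Il1b, Il1rn and Il10 lie close together in HFD mCherry, and every gene except Nlrp3 has its HFD Tert and HFD TertCi libraries above all HFD mCherry libraries.

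Levels of other marker lists also differed between the groups. The lipid-associated macrophage list (Trem2, Cd9, Spp1, Gpnmb, Lpl and Itgax) summed to 332 to 716 CPM in SD mCherry and 1320 to 5139 CPM in HFD mCherry, and to 427 to 1857 CPM with Tert and 417 to 1307 CPM with TertCi. Adipose progenitor genes ran from 2097 to 2948, from 3838 to 11060, from 2663 to 5265 and from 2372 to 4083 CPM, and mast cell genes from 24.6 to 81.1, from 74.7 to 261, from 46.0 to 74.4 and from 56.7 to 73.8 CPM in the same order. Dendritic cell genes summed to 24.9 to 35.5 CPM on the standard diet and to 50.0 to 98.8 CPM in HFD mCherry, without overlap, and to 39.5 to 90.2 CPM with Tert and 44.1 to 87.2 CPM with TertCi. Over the 12 libraries, which share their cell make-up, the mean log2 level of this list followed Tnf, Casp1 and Il10 (Pearson's r of 0.959, 0.962 and 0.951) more closely than the macrophage list did (0.807, 0.824 and 0.925). For Il1b and Nlrp3 the macrophage list was the closer one (0.873 and 0.81, against 0.793 and 0.587 for the dendritic cell list). The adipose progenitor list was also closer than the macrophage list to Tnf (0.861) and Nlrp3 (0.847). Endothelial genes ran from 511 to 686 and from 869 to 1583 CPM in the mCherry groups and from 1231 to 2552 and from 1098 to 2616 CPM with Tert and TertCi, and their level followed Il6 (r = 0.873) more closely than the macrophage list did (0.541). The epithelial list had a negative r with every inflammatory gene, from -0.427 (Il1a) to -0.812 (Il6), with -0.716 for Casp1 and -0.714 for Tnf. Neutrophil genes, whose cells also make Il1b, were scarce, at 3.35 to 6.72, 11.6 to 20.7, 2.86 to 11.4 and 6.53 to 11.6 CPM. Every HFD mCherry library nonetheless had a higher sum than every SD mCherry library for this list, as for the lipid-associated macrophage, progenitor and endothelial lists. Not all genes of a list went the same way. Of the neutrophil genes, Csf3r averaged 2.62 CPM in SD mCherry and 12.1 CPM in HFD mCherry, while S100a8 overlapped and Retnlg had a lower mean. Spp1, Dpp4 and Emcn on the other lists also had a lower mean in HFD mCherry. The part of these cells in the cytokine levels was not tested.

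The wider pathways were read from 6 lists. edgeR called 0 genes on each list in each comparison. In the diet comparison, where 24.1% of all genes had an unadjusted p under 0.05 in either direction, the numbers that did were 5 higher and 1 lower of 15 IL-1 family receptor and signalling genes, 8 higher of 12 inflammasome genes, 6 higher of 9 TNF pathway genes and 8 higher of 13 genes of the IL-6 and IL-10 pathways. For NF-κB subunits and inhibitors they were 4 higher of 12, and for arginine and nitric oxide genes 3 higher and 2 lower of 8. Against HFD mCherry, HFD Tert had 2, 3, 1, 4, 1 and 1 genes lower on the same lists and 1 higher, where 16.4% of all genes passed in either direction, and HFD TertCi had 3, 4, 1, 5, 1 and 0 lower and 1 higher, where 14.7% did. Several of these counts are near the share over all genes. Between HFD Tert and HFD TertCi the number was 0 on every list (1.36% of all genes).

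Il1rl1, the receptor of IL-33, had the largest fold difference on the 6 lists in the diet comparison. It averaged 5.44 ± 3.29 CPM in SD mCherry and 164 ± 105 CPM in HFD mCherry, against 22.5 ± 27.7 CPM with Tert and 19.5 ± 17.1 CPM with TertCi (SD, n = 3 each), a log2 fold change of 4.91 ± 1.15 on the diet (SE, edgeR adjusted p = 0.0727). Its ligand Il33 averaged 46.7 ± 11.6, 272 ± 173, 141 ± 39.8 and 86.8 ± 39.0 CPM in the same order (log2 fold change 2.54 ± 0.544 on the diet, SE, edgeR adjusted p = 0.0671). Il1r1, through which IL-1α and IL-1β signal, averaged 162 ± 30.6, 681 ± 383, 331 ± 131 and 294 ± 132 CPM (log2 fold change 2.07 ± 0.521 on the diet, SE, edgeR adjusted p = 0.0756). Without HFD mCherry replicate 15 or with DESeq2, the diet differences of these 3 genes passed the threshold.

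Among inflammasome genes, Naip2, a sensor of bacterial secretion proteins, averaged 2.98 ± 0.777 CPM in SD mCherry and 12.1 ± 5.90 CPM in HFD mCherry, against 2.74 ± 1.06 CPM with Tert and 3.45 ± 1.44 CPM with TertCi, with no overlap between HFD mCherry and any other group. Adam17, the protease that releases TNF from the cell surface, followed the same order at 70.7 ± 8.90, 135 ± 32.3, 74.4 ± 14.3 and 65.9 ± 11.8 CPM, again without overlap. Both genes were named for a small unadjusted p. Of all genes, 13.9% were apart and higher on the diet, 21.1% apart in either direction with Tert and 12% apart and lower with TertCi. The edgeR adjusted p for diet, Tert and TertCi was 0.0757, 0.187 and 0.203 for Naip2, and 0.0757, 0.195 and 0.165 for Adam17. In the IL-6 family, Il11 averaged 3.76 ± 2.86, 42.0 ± 23.8, 10.97 ± 5.26 and 10.6 ± 6.42 CPM, and Lif 105 ± 22.8, 294 ± 139, 125 ± 18.6 and 143 ± 7.19 CPM (SD, n = 3 each). Both relatives of IL-6 had a lower mean in each knock-in group than in HFD mCherry, while Il6 averaged 1253 CPM in HFD mCherry, 1268 CPM with Tert and 1055 CPM with TertCi. Whether Il6 differs from them in its response was not tested.

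**Figure D5:**
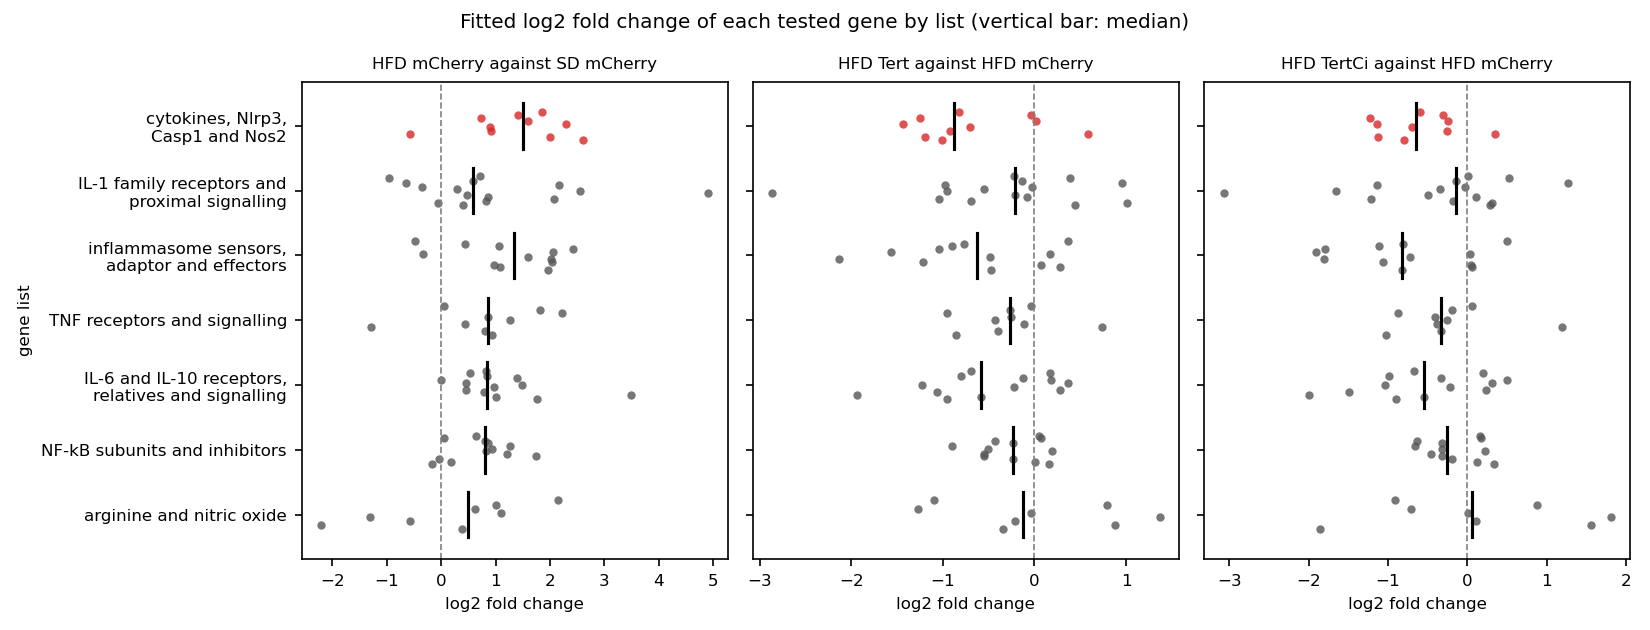
Fitted log2 fold change of every tested gene on the 6 pathway lists (grey) and of the 10 inflammatory genes (red) in the diet and both knock-in comparisons. Vertical bars are list medians. The medians are 1.51 for the 10 genes in the diet comparison and -0.88 and -0.64 in the knock-in comparisons.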

How the data were processed

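Poly-A selected RNA of the adipose stromal vascular fraction was sequenced in 12 libraries of 4 groups, per the labels' protocols. For each library the authors deposited raw counts per gene, made with Subread, SAMtools and featureCounts 1.6.4 on mm10, per the submitters' processing notes. The annotation and strand setting are not given in the sources used here. Library totals are given in the report and limit the precision of scarce transcripts: 3 counts correspond to 0.145 to 0.193 CPM.

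Genes were filtered with filterByExpr (16713 kept), scaled by TMM (factors 0.854 to 1.15), and fitted in 1 robust quasi-likelihood model over all libraries with edgeR 4.0.16 in R 4.3.3. The common biological coefficient of variation was 0.536. P-values are 2-sided and Benjamini-Hochberg adjusted over all genes, and a gene was called at an adjusted p under 0.05. The standard error is the log2 fold change divided by the square root of its F statistic, and 95% intervals use the fit's degrees of freedom. CPM refers to the TMM-scaled library size. RPKM and overlaps of genes came from GENCODE M21 (GRCm38). DESeq2 1.42.0 and limma 3.58.1 served as alternatives, with other scalings, filters, an epithelial covariate, fits to 6 libraries and leave-one-out fits. The pipeline was tested on simulated counts. Pathway genes are named by a rule: up to 3 per list and comparison, called or else with the smallest unadjusted p under 0.05, and further genes named as list members only describe a list. The 10 genes, the lists and the alternatives were chosen with earlier results of these data known.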

Additional observations from a re-analysis of the deposited data

How the results depend on the processing

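No paired analysis was possible because no replicate number occurs in more than 1 group. In the diet comparison the number of the 10 genes called was 0, and it was 6 with DESeq2, 4 with the epithelial covariate, and 0 to 6 over the 12 fits that each left out 1 library (6 without HFD mCherry replicate 15 and 3 without HFD Tert replicate 27). The HFD Tert count was 3 with the epithelial covariate, and the F-test over the 4 groups called 4 with DESeq2 and 2, Il10 and Casp1, with the covariate (1140 genes in all). All other alternatives, limma-voom included, gave 0 in every comparison. Over these fits the named pathway genes kept their direction in 840 of 840 fits. The 10 genes changed sign in 29 of 800, all for differences under their error: Nos2 in HFD Tert was 0.043 with library size only, and Il6 in HFD Tert -0.15 with the epithelial covariate. Leaving out single libraries, the differences from HFD mCherry ran from -0.41 to 0.37 (Il6, Tert), -0.29 to 0.21 (Nos2, Tert), -0.49 to 0.053 (Il1a, TertCi) and -0.76 to 0.11 (Il6, TertCi). Between HFD Tert and HFD TertCi they ran from -0.31 to 0.12 for Il1b, -0.995 to 0.029 for Il1rn, -1.09 to 0.097 for Tnf, -0.16 to 0.78 for Il6, -0.71 to 0.25 for Il10, -0.072 to 0.57 for Il18, -0.31 to 0.15 for Nlrp3 and -1.12 to 0.55 for Casp1. The cause was not tested.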

Other observations

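The genes whose profiles over the 12 libraries were most like those of the inflammatory genes were listed by Pearson's r of log2(CPM + 0.5) among 12356 or 12357 genes averaging 5 CPM or more. All points share the same libraries and their cell make-up, so r describes likeness only. Casp1 was most like Tcirg1, a subunit of the proton pump (r = 0.994), Cflar (0.993) and the lectin Clec4d (0.990). Il10 was most like the potassium channel gene Kcnk13 (0.991), Cd37 (0.982) and the lectin Clec4e (0.980), and Il1rn like the nucleotide receptor P2ry6 (0.980), the chemokine Cxcl5 (0.974) and Arrb2 (0.974). Il1b was most like Trex1 (0.959), the β-glucan receptor Clec7a (0.950) and Slc15a3 (0.943). Il6 was closest to Rabep1 (0.990), Gch1 (0.985) and the interferon receptor subunit Ifnar2 (0.978). Il18 had no gene above Gtf3c5 (0.897). Tnf was most like N4bp1 (0.983), Trip12 (0.981) and Fap (0.980), and Nlrp3 like Fem1c (0.964), Dennd4c (0.9635) and C1galt1 (0.954). Nos2 was nearest to Ptprm (0.953), Tusc5 (0.949) and Pdia5 (0.943), and Il1a to Plbd1 (0.944), Rasgrp1 (0.932) and Ubxn4 (0.916).

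Among the inflammatory genes themselves, Tnf and Il10 were the most alike pair (r = 0.931, 12 libraries) and Tnf and Casp1 the next (0.922). Il18 was unlike the other 9, with r between -0.24 and 0.181, and Nlrp3 was less like Il6 (0.240) and Nos2 (0.221) than like Il1b (0.762).

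Antisense and overlapping transcripts were counted as well. Il1bos, antisense to Il1b, had 15 to 98 counts per library, with the highest values in HFD mCherry replicates 20 (98) and 17 (95). Gm14023, which overlaps Il1a on the opposite strand, had 57 to 225 counts, the highest in HFD mCherry replicate 17. Without a stated strand setting, reads of these genes and of Il1a and Il1b cannot be told apart where the models overlap. In HFD Tert replicate 26, Gm14023 had 57 counts and Il1a 283, and in SD mCherry replicate 3 they had 86 and 354.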
